A study of Bos taurus with 20 samples.

Results

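The genes described here were on in few conceptuses. They were chosen on the measured values, as genes with a highest level of at least 20 CPM and a median of 2 CPM or less over the 19 libraries with more than 1000000 counts. CPM is the count of a gene scaled to a library total of 1000000 counts. The mitochondrial genome, chromosome X, genes of 200 nucleotides or less, ENSBTAG00000001292 and 1 region each of chromosomes 23 and 29 were left out, which left 22749 of the 27607 genes in the files. Of these, 9003 reached 20 CPM in some library and 11023 had a median of 2 CPM or less, and 40 genes met both conditions. The highest and median levels are therefore a description of how the genes were picked and are given without a test.

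The study measured total RNA, depleted of ribosomal RNA, in 20 whole, individual bovine conceptuses, 1 library each, read as pairs of 150 nucleotides. In the IL6 groups, embryos made by fertilisation in vitro received 100 ng/ml recombinant bovine interleukin-6 from day 5 and stayed in the drop to the blastocyst stage at day 7.5, and in the control groups they received the carrier medium. The groups held 4 tubular IL6 conceptuses (2 male and 2 female), 6 ovoid IL6 conceptuses (2 male and 4 female), 4 tubular control conceptuses (3 male and 1 female) and 6 ovoid control conceptuses (3 male and 3 female). The age at recovery, breed and recipient are not given in the labels. Each title begins with a code that the labels do not explain, called the title code here. Codes c6186 (6 conceptuses) and c9007 (4) hold IL6 conceptuses only, and codes c5036 (4), c201 (4) and c8086 (2) hold controls only, so that IL6 and title code cannot be told apart. Among the controls, c201 holds ovoid conceptuses only and c8086 tubular conceptuses only, so that shape and title code are partly mixed there. Codes c5036, c6186 and c9007 hold both shapes, and every code holds both sexes.

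Before it attaches, the bovine conceptus grows out of the blastocyst through ovoid and tubular forms into a long filament, mostly by growth of its outer trophoblast. The embryonic disc and the yolk sac lining form in the same weeks, so that conceptuses collected together can differ in stage and in the cells they hold. Interleukin-6 is a cytokine that signals through a shared receptor subunit to JAK kinases and STAT transcription factors. The files pair gene identifiers with positions and not with names, and 0 of the 27607 identifiers matched the gene table at hand. Members are therefore called by identifier and by position on ARS-UCD1.2, no role is given to any of them, and the conceptus label could not be checked against cell type markers. A library holds the RNA of a whole conceptus, so a larger share of a cell type and more RNA per cell cannot be told apart.

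The 19 libraries held 2298491 to 13940103 counts, so that 1 count was worth 0.0717 to 0.4351 CPM and 20 CPM stood for 45.97 to 278.8 counts. Replicate 3 of the ovoid controls (title code c201) held 329666 counts, its median rank correlation with the other libraries was 0.735 against 0.9206 to 0.9624 in the others, and it was not used to choose members. Its values are given on their own further on.

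Taking 20 CPM or more as carrying a gene, 30 of the 40 genes had 1 carrier, 6 had 2, 2 had 3 and 2 had 5. This bound is the one that chose the genes. At 10 CPM or more, 14 genes had a single such conceptus and 26 had more, up to 8. In 21 genes the highest library was at least 2 times the second highest. Carrying was also uneven between conceptuses: 13 of the 19 carried at least 1 gene and 6 carried none. Ovoid IL6 replicate 1 carried 11 genes, ovoid IL6 replicates 3 and 4 carried 7 each, and ovoid IL6 replicate 5, tubular control replicate 1 and ovoid control replicate 1 carried 5 each. The 6 conceptuses with no carried gene were tubular IL6 replicates 1, 3 and 4, ovoid IL6 replicate 6, tubular control replicate 2 and ovoid control replicate 5, and the last of these was the deepest library. By group, the highest value of a gene lay in a tubular IL6 conceptus for 3 genes, in an ovoid IL6 conceptus for 25, in a tubular control for 9 and in an ovoid control for 3. By title code it lay in c6186 for 23 genes, in c9007 for 5, in c8086 for 6, in c5036 for 3 and in c201 for 3. By sex it lay in a male for 18 genes (10 males) and in a female for 22 (9 females).

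**Figure D1:**
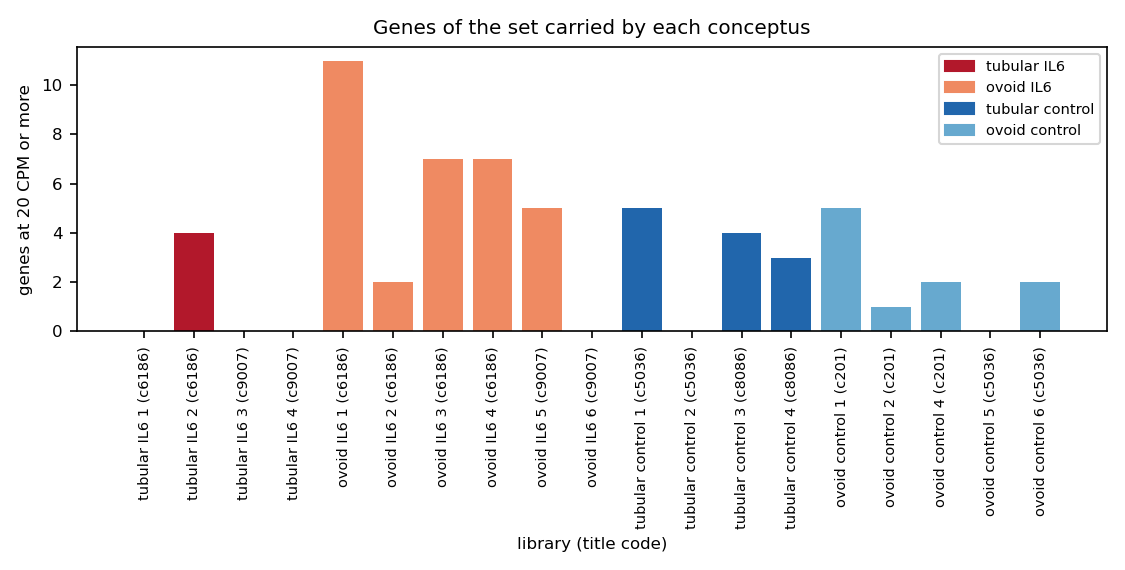
Number of the 40 genes at 20 CPM or more in each of the 19 libraries, as bars coloured by group, with the title code in brackets. Ovoid IL6 replicate 1 carries 11 genes and 6 conceptuses carry none.

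Which genes were high together was read from clusters of log2(CPM + 1) over the 19 libraries, with a cluster of 3 or more genes called a program. Programs A, B and C held 10, 9 and 3 genes, and 18 genes belonged to none. Pearson's r between members of a pair had a median of 0.778 in program A (45 pairs), 0.949 in program B (36 pairs) and 0.809 in program C (3 pairs), against -0.03 over all 780 pairs of the 40 genes. These correlations are a description of the same values that chose the genes, and the pairs share libraries and depth.

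**Figure D2:**
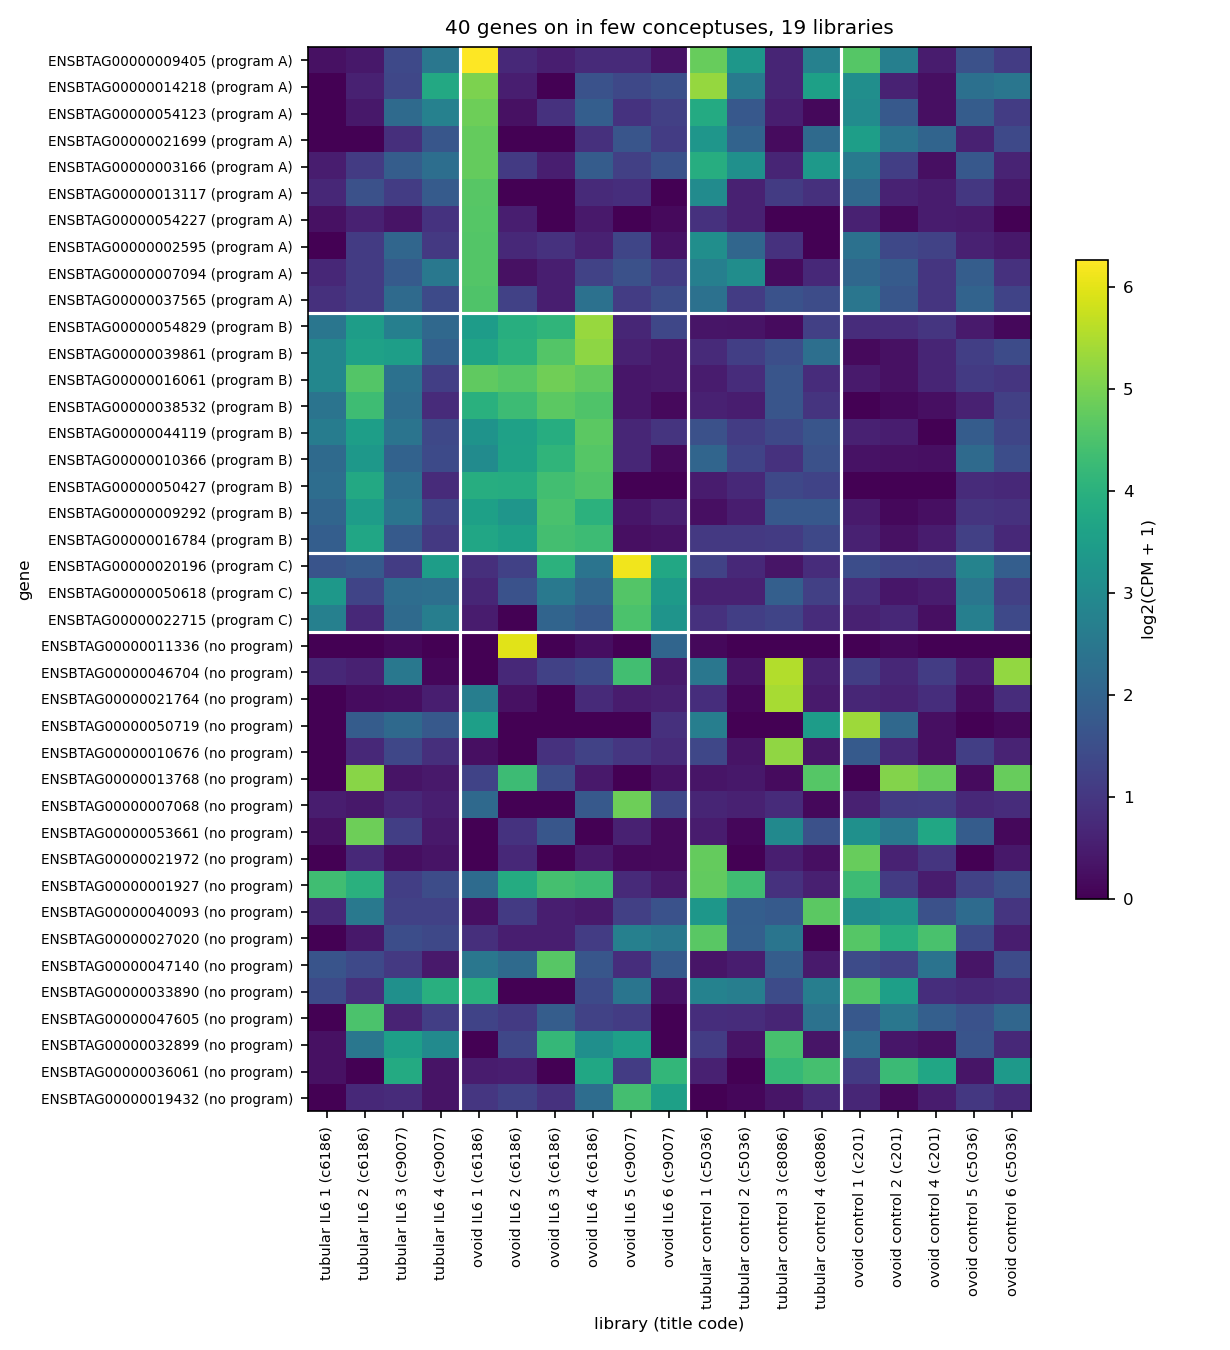
Level of the 40 genes (rows) in 19 libraries (columns, by group, title code in brackets) as log2(CPM + 1), with white lines between groups and between programs. Program A is brightest in ovoid IL6 replicate 1, program B in the conceptuses of title code c6186, and program C in ovoid IL6 replicate 5.

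Program A was highest in 1 conceptus. Its 10 genes lay on 10 chromosomes, all 10 were above 20 CPM in ovoid IL6 replicate 1 (a male of title code c6186), and their summed level there was 304 CPM. The next conceptuses were tubular control replicate 1 with 125 CPM, of which 4 genes reached 10 CPM, and ovoid control replicate 1 with 68.9 CPM, of which 2 genes did, both male. No other conceptus exceeded 39.9 CPM for the sum. Ovoid IL6 replicate 1 held 5032351 counts, and tubular IL6 replicate 1, a male of the same title code with 4845404 counts, had 2.89 CPM for the sum.

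ENSBTAG00000009405 (chromosome 12, 23965261 to 24172034, plus strand) was the member with the highest level of all 40 genes. It had 75.7 CPM in ovoid IL6 replicate 1, 26.8 CPM in tubular control replicate 1 and 23.3 CPM in ovoid control replicate 1. In the other 16 conceptuses it ran up to 8.90 CPM, in tubular control replicate 2, with a lowest value of 0.206 CPM in tubular IL6 replicate 1. High values of this gene thus stood in 3 of the 4 groups, always in males.

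ENSBTAG00000014218 (chromosome 26, 6846290 to 6849518, minus strand) was the exception in order, with 31.6 CPM in ovoid IL6 replicate 1 and 37.5 CPM in tubular control replicate 1. It also had 12.8 CPM in tubular IL6 replicate 4 and 10.8 CPM in tubular control replicate 4, all 4 of them males. ENSBTAG00000054123 (chromosome 5, 4492053 to 4505960, minus strand) had 28.2 CPM in ovoid IL6 replicate 1 and 13.1 CPM in tubular control replicate 1, and up to 7.10 CPM elsewhere. The narrowest pattern was that of ENSBTAG00000054227 (chromosome 9, 36560776 to 36564822, plus strand), with 23.2 CPM in ovoid IL6 replicate 1 and no more than 0.880 CPM in any of the 18 other libraries. It is named for that pattern, after its values were seen. The other 6 genes of the program had 22.3 to 26.6 CPM in ovoid IL6 replicate 1 and second values of 4.45 to 13.9 CPM.

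The grouping rested on that conceptus: without ovoid IL6 replicate 1 the median r of the 45 pairs was 0.636, and the largest cluster of its genes held 3 of the 10. By sex the summed level ran over 2.89, 36.2 and 304 CPM in the 10 males (lowest, median, highest) and over 3.48, 9.78 and 20.45 CPM in the 9 females. The ranges overlapped at the low end, and the 7 conceptuses with sums of 20.7 CPM or more were all male.

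Genes outside the set followed the same pattern at higher base levels. Of 12790 genes with at least 5 CPM in some library, 23 had an r of 0.9 or more with the mean of program A. The closest was ENSBTAG00000003089 (chromosome 18, 43404074 to 43474596), with r = 0.935, a highest level of 310 CPM and a median of 65.5 CPM. The next was ENSBTAG00000019385 (chromosome 2, 31103231 to 31183473), with r = 0.933, a highest level of 191 CPM and a median of 2.71 CPM. ENSBTAG00000019385 missed the set by its median alone.

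Program B was high throughout 1 title code. Its 9 genes lay on 7 chromosomes, and each had its highest value in ovoid IL6 replicate 3 or 4, both females of title code c6186. The summed level in c6186 was 39.8 and 117 CPM in tubular IL6 replicates 1 and 2, and 114, 126, 183 and 226 CPM in ovoid IL6 replicates 1 to 4. In the other IL6 code, c9007, it was 41.4 and 14.5 CPM in tubular IL6 replicates 3 and 4, and 3.30 and 4.07 CPM in ovoid IL6 replicates 5 and 6. The 9 controls had 2.17 to 16.2 CPM. All 6 conceptuses of c6186 were therefore above each of these 9 controls, while c9007 held 1 conceptus at the level of the lowest c6186 conceptus and others at the level of controls. The shallow ovoid control replicate 3 is not among the 9. Its 585 CPM for ENSBTAG00000016061 alone exceeded every one of these sums.

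ENSBTAG00000054829 (chromosome 1, 626079 to 668340, plus strand) had 4.54 and 10.2 CPM in the tubular and 9.94, 14.1, 16.1 and 38.1 CPM in the ovoid conceptuses of c6186. In c9007 it had 5.51 and 3.34 CPM in the tubular and 0.583 and 1.51 CPM in the ovoid conceptuses. The 9 controls had 0.107 to 1.29 CPM. The tubular IL6 conceptuses of both codes were above the tubular controls, and among ovoid conceptuses the c9007 values overlapped the controls.

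ENSBTAG00000039861 (chromosome 17, 61363053 to 61371004, minus strand) had 6.40 and 11.0 CPM in the tubular and 11.5, 15.0, 23.1 and 36.0 CPM in the ovoid conceptuses of c6186. The highest value elsewhere among the 19 libraries was 10.3 CPM in tubular IL6 replicate 3 (c9007). ENSBTAG00000016061 (chromosome 11, 90038994 to 90056291, minus strand) was the member with the flattest level inside the code, with 6.40 and 22.8 CPM in the tubular and 25.6, 23.3, 28.7 and 25.4 CPM in the ovoid conceptuses of c6186. It was carried by 5 conceptuses, and its highest value in the other 13 libraries was 4.09 CPM in tubular IL6 replicate 3. A 5-conceptus count was also the largest number of carriers in the set.

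For 9 of the 9 genes, at least 5 of the 6 c6186 conceptuses were above the other 13 of the 19 libraries, and for 4 (ENSBTAG00000016784, ENSBTAG00000016061, ENSBTAG00000038532 and ENSBTAG00000044119) all 6 were. The lowest of the 6 was tubular IL6 replicate 1 in each gene. The shallow ovoid control replicate 3 is not among the 13, and it was above c6186 for ENSBTAG00000016061, ENSBTAG00000039861 and ENSBTAG00000010366 (585, 234 and 51.6 CPM). The 9 genes were chosen and grouped on these values, and the share over all genes was not counted, so this separation is a description. Over the 6 conceptuses of c6186 the median r was 0.891 (0.708 to 0.991). Over the other 13 libraries the median was 0.799, and single pairs ran from 0.1 to 0.944. In those 13 the highest value lay in tubular IL6 replicate 3 for every gene but ENSBTAG00000010366. The c6186 libraries held 2298491 to 6262473 counts, below 12 of the other 13 libraries, and the remaining one, ovoid control replicate 4 with 5197824 counts had 3.08 CPM for the sum.

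**Figure D3:**
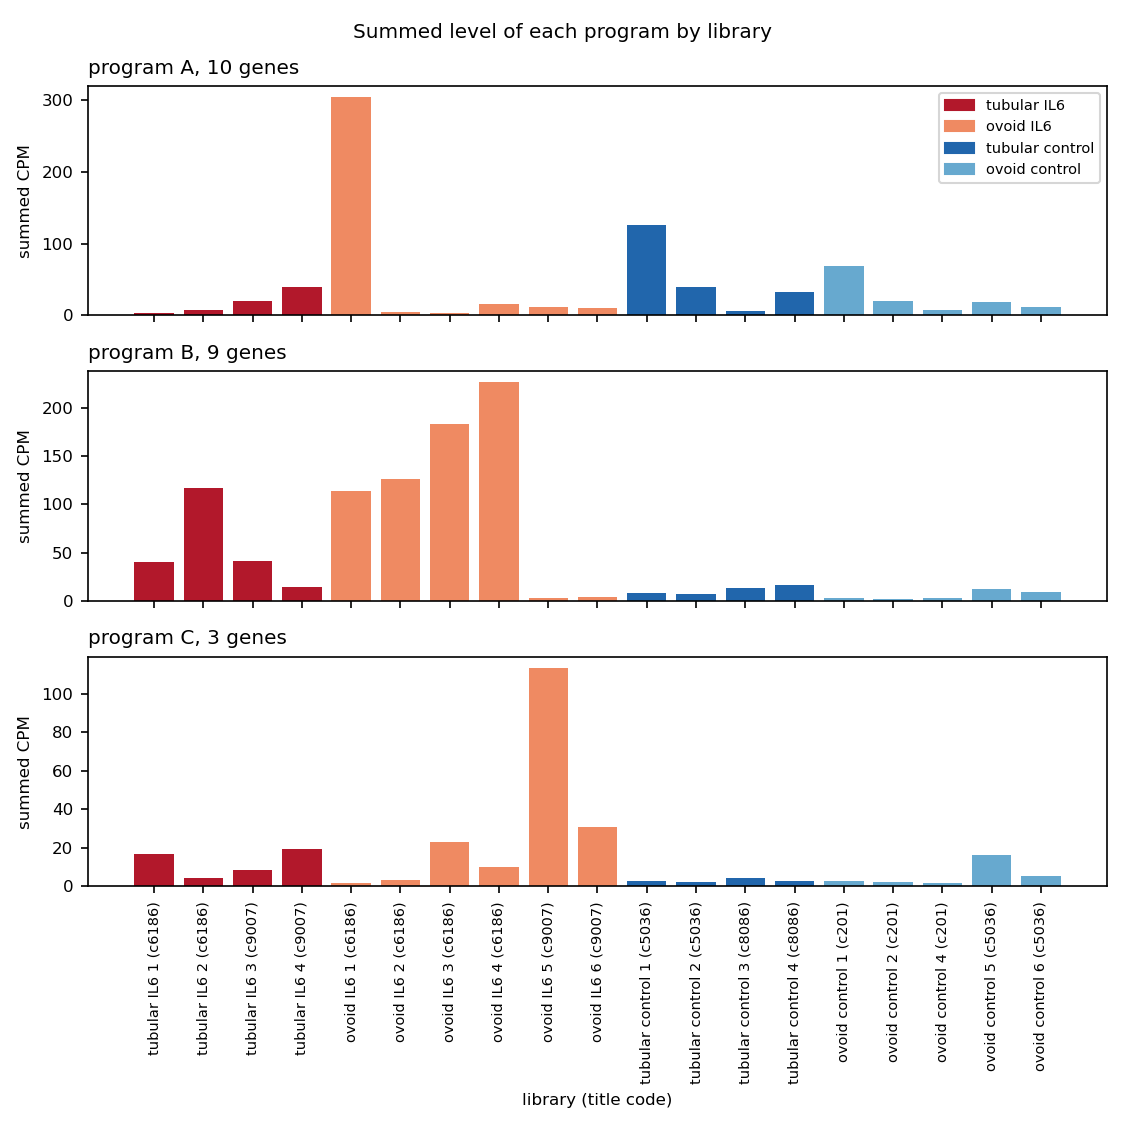
Summed CPM of the genes of programs A, B and C in each of 19 libraries, as bars coloured by group, with the title code in brackets. Program A peaks at 304 CPM in ovoid IL6 replicate 1, program B spans 39.8 to 226 CPM in title code c6186, and program C peaks at 113 CPM in ovoid IL6 replicate 5.

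Many other genes followed program B. Outside the set, 134 genes had an r of 0.9 or more with its mean. The closest were ENSBTAG00000052650 (chromosome 20, 35949939 to 35952005; r = 0.989, highest level 18.1 CPM) and ENSBTAG00000007554 (chromosome 2, 125662055 to 125665793; r = 0.988, highest level 78.6 CPM). The third, ENSBTAG00000010423 (chromosome 20, 35840757 to 35949859; r = 0.987, highest level 46.3 CPM), ends just before the first of them begins. Near neighbours shared the pattern too. ENSBTAG00000039861 is followed on its own strand by ENSBTAG00000053807 (61376225 to 61385129), 5221 bases away with r = 0.977, and by ENSBTAG00000037527 (61394801 to 61402638) with r = 0.953. Whether these 3 genes are near-identical copies cannot be read from the files, and reads that align to several copies would not be counted.

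Program C held 3 genes and peaked in ovoid IL6 replicate 5, a female of title code c9007. The summed level was 113 CPM there, against 30.6 CPM in ovoid IL6 replicate 6, 23.1 CPM in ovoid IL6 replicate 3 and 1.79 to 19.5 CPM in the other 16 libraries. ENSBTAG00000020196 (chromosome 9, 69599029 to 69687302, plus strand) had 68.9 CPM in ovoid IL6 replicate 5, 15.2 CPM in ovoid IL6 replicate 3, 12.6 CPM in ovoid IL6 replicate 6 and 10.3 CPM in tubular IL6 replicate 4. All 9 controls were at 0.286 to 6.03 CPM for that gene. The 4 conceptuses at 10 CPM or more were thus 1 tubular and 3 ovoid IL6 conceptuses, from both IL6 codes. The remaining IL6 conceptuses were all below 5 CPM, with 0.795 CPM in ovoid IL6 replicate 1, and overlapped the controls.

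The other 2 genes of program C are neighbours on chromosome 26, ENSBTAG00000050618 (42405805 to 42438497) and ENSBTAG00000022715 (42474359 to 42491825), 35862 bases apart on the plus strand. They had 23.02 and 21.5 CPM in ovoid IL6 replicate 5 and second values of 9.66 and 8.38 CPM, both in ovoid IL6 replicate 6, with r = 0.911 between them. ENSBTAG00000050618 overlaps 7 other genes of its strand, among them ENSBTAG00000052092 with r = 0.927, and reads that overlap exons of both would be counted for neither. Without ovoid IL6 replicate 5 the median r of the program was 0.682 and its genes no longer formed a program.

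Of the 18 genes outside the programs, several had a wide gap between conceptuses with high and with low values. The gaps were read from the values and not tested. ENSBTAG00000013768 (chromosome 4, 62120709 to 62274639, minus strand) had 34.2 CPM in tubular IL6 replicate 2, 18.5 CPM in ovoid IL6 replicate 2 and 23.6 CPM in tubular control replicate 4. In ovoid controls it had 33.3, 26.9 and 27.0 CPM in replicates 2, 4 and 6. The other 13 libraries were at or below 1.74 CPM. Its 6 high conceptuses came from 4 title codes, c6186, c5036, c201 and c8086, and from both sexes, both shapes and both treatments.

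ENSBTAG00000036061 (chromosome 9, 87207805 to 87226372, plus strand) was split more evenly, with 8 conceptuses at 9.37 CPM or more and 11 at 1.17 CPM or less. The 8 came from all 5 title codes, with 13.2 CPM in tubular IL6 replicate 3, 12.2 and 16.8 CPM in ovoid IL6 replicates 4 and 6, 17.4 and 20.4 CPM in tubular control replicates 3 and 4, and 18.2, 12.1 and 9.37 CPM in ovoid control replicates 2, 4 and 6. No library lay between those bounds.

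ENSBTAG00000001927 (chromosome 11, 86882894 to 86942882, minus strand) had 13.4 CPM or more in 8 conceptuses and 3.58 CPM or less in 11. Of the 8, 5 belonged to c6186 (tubular IL6 replicates 1 and 2 and ovoid IL6 replicates 2, 3 and 4), 2 to c5036 and 1 to c201. The 6th conceptus of c6186, ovoid IL6 replicate 1, had 3.58 CPM, the highest value below the gap. Its highest value was 25.9 CPM in tubular control replicate 1.

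ENSBTAG00000021972 (chromosome 20, 59226991 to 59489350, plus strand) was on in exactly 1 tubular and 1 ovoid control, both male. It had 26.4 CPM in tubular control replicate 1 and 26.8 CPM in ovoid control replicate 1, and 0.962 CPM or less in the other 17 libraries. ENSBTAG00000027020 (chromosome 2, 7198509 to 7357287, plus strand) was high in the same conceptuses and in others of the control groups. It had at most 5.63 CPM in the 10 IL6 conceptuses, against 24.5 CPM in tubular control replicate 1, 23.4, 14.2 and 21.2 CPM in ovoid control replicates 1, 2 and 4, and at most 4.43 CPM in the other 5 controls.

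**Figure D4:**
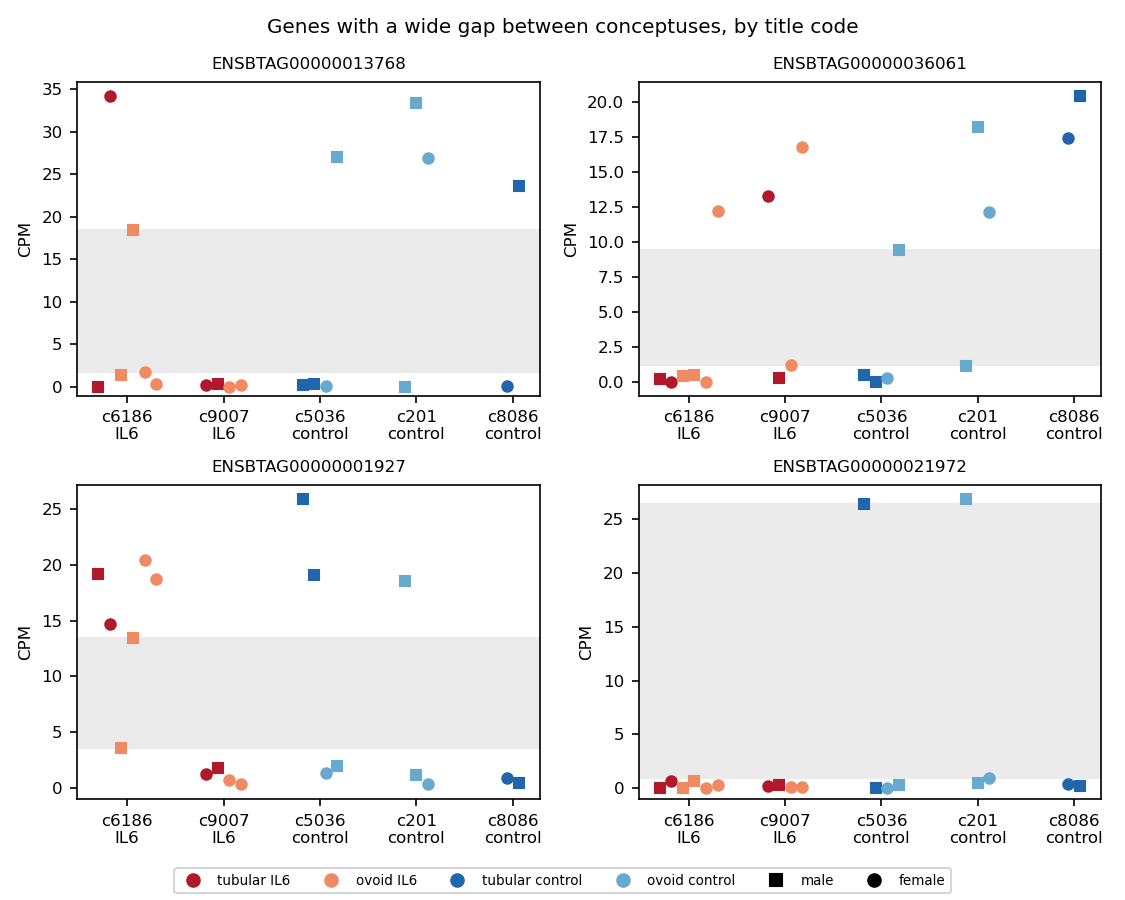
CPM of 4 genes in 19 libraries by title code, coloured by group, squares for males and circles for females, with grey bands for the range that holds no library. High and low conceptuses stand apart, with 6, 8, 8 and 2 conceptuses above the band.

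Other genes outside the programs were high in 1 or a few conceptuses. ENSBTAG00000011336 (chromosome 5, 9754283 to 9927119, plus strand) had 62.0 CPM in ovoid IL6 replicate 2, 3.14 CPM in ovoid IL6 replicate 6, at most 0.167 CPM in the other 17 libraries and 0 counts in 13. Tubular control replicate 3 had the highest value of 4 genes. Among them, ENSBTAG00000021764 (chromosome 17, 42021088 to 42110395, minus strand) had 42.3 CPM there and at most 5.37 CPM elsewhere. ENSBTAG00000010676 (chromosome 3, 117246496 to 117266624, plus strand) had 36.6 CPM there and at most 2.41 CPM elsewhere, and the r between these genes was 0.789. ENSBTAG00000046704 (chromosome 13, 74033030 to 74034898, plus strand) had 19.6 CPM in ovoid IL6 replicate 5, 45.3 CPM in tubular control replicate 3, 37.2 CPM in ovoid control replicate 6 and at most 4.71 CPM elsewhere.

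ENSBTAG00000050719 (chromosome 2, 132596218 to 132608914, plus strand) had 10.5 CPM in ovoid IL6 replicate 1, 9.98 CPM in tubular control replicate 4 and 39.5 CPM in ovoid control replicate 1, all males, and 0 counts in 8 libraries. ENSBTAG00000033890 (chromosome 17, 71014114 to 71018423, minus strand) had 14.3 CPM in tubular IL6 replicate 4, 14.7 CPM in ovoid IL6 replicate 1, and 22.6 and 10.6 CPM in ovoid control replicates 1 and 2. In ovoid IL6 replicate 5, ENSBTAG00000007068 (chromosome 1, 139528818 to 139600025, plus strand) had 28.3 CPM, against at most 3.38 CPM elsewhere. ENSBTAG00000040093 (chromosome 11, 47610779 to 47615082, plus strand) had 24.8 CPM in tubular control replicate 4 and at most 8.89 CPM elsewhere. The remaining genes of this kind, such as ENSBTAG00000053661 and ENSBTAG00000047605 in tubular IL6 replicate 2, had highest values of 20.1 to 28.3 CPM.

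The 40 genes had usual gene structures. Their median exon length was 2558 nucleotides and their median number of exons 8.5, against 2637 nucleotides and 10 exons in the other 8963 genes that reached 20 CPM. A single exon was annotated for 1 of the 40 (2.5%), ENSBTAG00000047140, against 3.34% of the others. They lay on 20 chromosomes, and 4 of them were within 1 Mb of another member. A neighbour within 500 kb with an r of 0.7 or more was found for 16, which was not counted for the other 8963 genes. Another gene overlapped 15 of the 40 between its start and end, on the other strand for 7. Since the counting ignored strand, reads that overlap exons of both genes of such a pair would be counted for neither. Per kilobase of exon, the highest level was 186 CPM in ENSBTAG00000046704, whose exons sum to 243 nucleotides, and 16.2 CPM in ENSBTAG00000009405.

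At the edges of the rule, the genes just inside the highest level were ENSBTAG00000016784 at 20.01 CPM and ENSBTAG00000019432 at 20.1 CPM, and just outside were ENSBTAG00000047129 at 19.79 CPM and ENSBTAG00000050020 at 19.67 CPM. For the median, ENSBTAG00000050618 at 1.98 CPM and ENSBTAG00000003166 at 1.979 CPM were just inside, and ENSBTAG00000031383 at 2.009 CPM and ENSBTAG00000016411 at 2.023 CPM just outside. The size of the set moves with these bounds: a median of 1 CPM or less would leave 14 genes and a median of 4 CPM or less 105, while a highest level of 10 CPM would give 155 and 50 CPM would give 3.

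The shallow library, ovoid control replicate 3, took no part in that choice, and 8 of the 40 genes had more than 3 counts in it. ENSBTAG00000016061 had 193 counts, or 585 CPM with an exact 95% Poisson interval of 505.8 to 674.1 CPM, against at most 1.08 CPM in the other 5 ovoid controls. ENSBTAG00000039861 had 77 counts (234 CPM, interval 184.3 to 291.9 CPM) against at most 1.70 CPM, and ENSBTAG00000010366 had 17 counts (51.6 CPM, interval 30.04 to 82.56 CPM) against at most 3.52 CPM. These are genes of program B, and all 3 intervals lie above the highest value of any deeper library, 28.7, 36.0 and 23.6 CPM.

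The other 6 genes of program B had 3 counts or fewer in the shallow library. ENSBTAG00000016784 had 3 counts (9.1 CPM, interval 1.877 to 26.59 CPM), against at most 1.29 CPM in the other ovoid controls and 20.01 CPM in c6186. ENSBTAG00000044119 had 2 counts (6.07 CPM, interval 0.735 to 21.9 CPM), against at most 2.51 CPM in the other ovoid controls and 24.6 CPM in c6186. ENSBTAG00000054829, ENSBTAG00000038532, ENSBTAG00000009292 and ENSBTAG00000050427 reached 38.1, 24.8, 20.9 and 22.3 CPM in c6186 and had 0 counts in the shallow library, which allows up to 9.1 CPM at a floor of 3 counts (the exact two-sided 95% interval ends at 11.2 CPM). Outside program B, ENSBTAG00000047140 had 50 counts (152 CPM) against at most 4.23 CPM in the other ovoid controls, and ENSBTAG00000019432 had 13 counts (39.4 CPM) against at most 1.004 CPM. Intervals and floors cover counting error only. This library also stood apart from the others over all genes, and the part of that in these values was not tested.

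**Figure D5:**
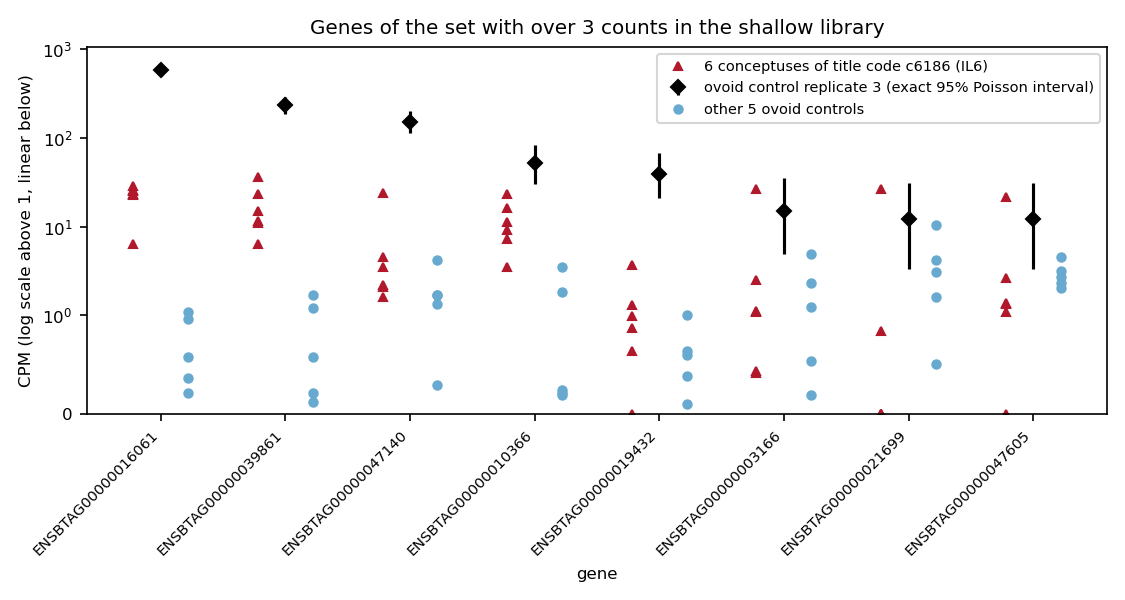
CPM of the 8 genes with more than 3 counts in ovoid control replicate 3 (diamonds, exact 95% Poisson intervals), with the 6 conceptuses of title code c6186 to the left and the other 5 ovoid controls to the right, on an axis that is logarithmic above 1 CPM and linear below. ENSBTAG00000016061 stands at 585 CPM, against at most 1.08 CPM in the other ovoid controls.

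The labels imply comparisons of IL6 with control, of tubular with ovoid and of male with female conceptuses. They were fitted over all genes with edgeR's quasi-likelihood test on all 20 libraries, with the sex as a term, and 36 of the 40 genes were among the 14875 that passed the filter on low counts. The 4 that did not (ENSBTAG00000011336, ENSBTAG00000021764, ENSBTAG00000021972 and ENSBTAG00000054227) were on in 1 or 2 conceptuses. The genes were picked for uneven values, so a share with small p-values above that of all genes says nothing particular about them. The programs were grouped on the same values, so a direction shared within a program is no test either.

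For IL6 against control in ovoid conceptuses, 0 of the 36 genes passed the Benjamini-Hochberg adjusted threshold of 0.05 in edgeR, as did 0% of all genes tested. At an unadjusted p under 0.05 there were 11 of the 36, of which 8 fold changes were positive and 3 negative, against 8.34% of all genes. With limma-voom and the title code as a random block, 3 of the 36 had an unadjusted p under 0.05, against 2.33% of all genes. DESeq2 called 6 of the 36, and 0.578% of all genes. These 6 were all of program B: ENSBTAG00000054829, ENSBTAG00000009292, ENSBTAG00000038532, ENSBTAG00000050427, ENSBTAG00000016784 and ENSBTAG00000044119. In the IL6 comparisons DESeq2 gave no p-value for ENSBTAG00000016061 of program B and for ENSBTAG00000046704. Both are counted among the 36 but were not tested in DESeq2. In edgeR, program B had a median log2 fold change of 3.62 over its 9 genes and a smallest adjusted p of 0.304, in ENSBTAG00000054829 (log2 fold change 4.54, SE 0.89). Each of the 9 had its highest value among the 19 libraries in c6186, which holds IL6 conceptuses only. A positive median thus follows in part from the choice and grouping of the genes. Of the 9, 7 had positive fold changes, while ENSBTAG00000016061 had -0.96 and ENSBTAG00000039861 had -0.27 on the log2 scale, the genes with 193 and 77 counts in the shallow ovoid control, which is part of the fit. The median over all 36 genes was 0.87 on the log2 scale, beside 0.02 over all genes tested.

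The count changed when a title code was left out. Without c9007, edgeR called 6 of 40 genes for ovoid conceptuses, and 1.01% of all genes, and the 6 were those that DESeq2 called on all libraries. Without c6186, which removes 4 of the 6 ovoid IL6 conceptuses, it called 0, and 0% of all genes, and the log2 fold change of ENSBTAG00000009292 was -0.98 against 4.12 on all libraries. Without ovoid IL6 replicate 5 alone, 11 genes passed (0.0743% of all), 1 of them a member, ENSBTAG00000054829 (log2 fold change 4.75, adjusted p = 0.0309 in edgeR). The median over the members tested was -0.85 on the log2 scale without c6186.

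For IL6 against control in tubular conceptuses, 0 of the 36 genes passed in edgeR and DESeq2, as did 0% of all genes in edgeR, and 6 had an unadjusted p under 0.05 in edgeR, against 2.51% of all genes. With limma-voom and the random block these were 2, against 1.75% of all genes. ENSBTAG00000054829 had 4.54, 10.2, 5.51 and 3.34 CPM in the 4 tubular IL6 conceptuses, against 0.287, 0.247, 0.143 and 1.29 CPM in the 4 tubular controls. The groups did not overlap, and the log2 fold change was 3.37 (SE 1.02) with an adjusted p of 0.9997 in edgeR's quasi-likelihood test. ENSBTAG00000010676 had a log2 fold change of -3.04 (SE 1.15), and of -0.34 without tubular control replicate 3, its single carrier.

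Averaged over the shapes, 0 of the 36 genes passed in edgeR, as did 0% of all genes, and 13 had an unadjusted p under 0.05 (9 positive, 4 negative), against 10.7% of all genes. With limma-voom and the random block these were 3, against 4.15% of all genes. The smallest adjusted p in edgeR was 0.205, in ENSBTAG00000054829 (log2 fold change 3.96, SE 0.69). DESeq2 called 7 of the 36 and 0.961% of all genes, of which ENSBTAG00000020196 of program C was higher, and ENSBTAG00000040093 and ENSBTAG00000027020 were lower in IL6 conceptuses. The other 4 were genes of program B. Without c9007, edgeR called 6 of 40 and 2.27% of all genes, and without c6186 it called 0, and 0% of all genes. Without ovoid IL6 replicate 5, ENSBTAG00000054829 was the 1 gene that passed (adjusted p = 0.0272 in edgeR; 0.00676% of all).

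Shape moved none of the genes past the threshold. The edgeR and DESeq2 fits held no term for title code, which differs in part between tubular and ovoid controls. For tubular against ovoid controls, 0 of 36 genes passed in edgeR and DESeq2, beside 0% of all genes in edgeR, and 2 had an unadjusted p under 0.05, against 1.64% of all genes. These were ENSBTAG00000047140 and ENSBTAG00000016061, both of which were high in the shallow ovoid control. ENSBTAG00000016061 had a log2 fold change of -5.03 (SE 2.37), and 0.62 without that library. With limma-voom and the random block, 0 of 36 had an unadjusted p under 0.05, against 0.45% of all genes. For tubular against ovoid IL6 conceptuses, 0 of 36 passed in both tools, beside 0% of all genes in edgeR, and 3 had an unadjusted p under 0.05, against 2.8% of all genes, while with limma-voom and the random block there were 2, against 3.92%.

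Sex was the remaining comparison. For male against female conceptuses, 0 of 36 genes passed in edgeR, beside 0.0538% (8 genes) of all, and 14 had an unadjusted p under 0.05 (8 positive, 6 negative), against 6.88%. With limma-voom and the random block these were 5, against 6.78%. All 9 tested genes of program A had a positive fold change, with a median of 2.06 on the log2 scale, and 6 of them had an unadjusted p under 0.05. The program was grouped on values that peak in ovoid IL6 replicate 1, a male, so this shared direction follows in part from the choice of genes. ENSBTAG00000009405 had a log2 fold change of 3.88 (SE 0.91) with an adjusted p of 0.247 in edgeR and of 0.000574 in DESeq2. DESeq2 called 2 of the 36 and 0.592% of all genes, the other being ENSBTAG00000019432, which was lower in males. In edgeR the log2 fold change of ENSBTAG00000019432 was -2.85, and -1.73 without the shallow ovoid control replicate 3, a female with 39.4 CPM. Without ovoid IL6 replicate 1, the male with the highest program A, the log2 fold change of ENSBTAG00000009405 was 2.27 in edgeR. The number of members of the whole set at an unadjusted p under 0.05 in edgeR then fell from 14 to 6. That number is not for program A alone, which was not counted without this male.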

How the data were processed

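Counts were deposited by the authors as 1 table per library. Per the file headers, featureCounts 2.0.1 made them from exons joined by gene, ignoring strand, with Ensembl release 105 on ARS-UCD1.2. The submitters' processing notes also list HISAT2, SAMtools and Picard, without versions. The commands hold no option to count reads that overlap several genes or align to several places. CPM was computed here as count over library total.

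The 40 genes, the clusters and the lists were chosen with earlier results of these data known. Clusters used average linkage on 1 minus Pearson's r of log2(CPM + 1), with the tree divided at height 0.3. Named genes were the 10 with the highest level, the 3 highest of each program, the highest in each library, those with the most carriers, those past a threshold and those at the edges of the rule. Further genes outside the programs, those with a gap among them, were named after their values were seen. The marker lists could not be used, because 0 identifiers matched a symbol.

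edgeR 4.0.16 (quasi-likelihood, robust, TMM, default expression filter, terms for 4 groups and sex) and DESeq2 1.42.0 were fitted to whole tables in R 4.3.3 and tested on simulated data. P-values are adjusted by Benjamini-Hochberg over all genes tested. Standard errors are the log2 fold change over the square root of F. Each library is a separate conceptus, and replicate numbers only name libraries. No pair of libraries held identical values. Alternatives were DESeq2, other filters and scalings, title code as a random block (limma-voom 3.58.1 with duplicateCorrelation), leaving out each library or code and other bounds of the rule. Python 3.11.15 and matplotlib 3.10.9 drew the plots.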

Additional observations from a re-analysis of the deposited data

Results flagged for a closer look

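Within each group of 4 to 6 conceptuses, values of at least 10 CPM were marked where the gap to the next conceptus took more of the range than Dixon's 95% value allows. Dixon's 95% value alone stands for about 1 in 20 groups marked by chance. Only values of at least 10 CPM could be marked here, so that rate does not apply to these groups. The genes were also chosen for high values in few libraries, so the marks describe and do not test. They fell on 37 of 160 combinations of gene and group, all of them high values, and on 27 genes.

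Ovoid IL6 replicate 1 had 12 of these genes, beside program A with a sum of 304 CPM. They were, of program A, ENSBTAG00000009405 with 75.7, ENSBTAG00000014218 with 31.6, ENSBTAG00000054123 with 28.2, ENSBTAG00000021699 with 26.6, ENSBTAG00000003166 with 26.4, ENSBTAG00000013117 with 23.6, ENSBTAG00000054227 with 23.2, ENSBTAG00000002595 and ENSBTAG00000007094 with 23.1 each and ENSBTAG00000037565 with 22.3 CPM, and outside it ENSBTAG00000033890 with 14.7 and ENSBTAG00000050719 with 10.5 CPM. In ovoid IL6 replicate 2, ENSBTAG00000011336 had 62 CPM and ENSBTAG00000013768 had 18.5 CPM. In ovoid IL6 replicate 3, ENSBTAG00000047140 had 23.9 CPM. In ovoid IL6 replicate 5, program C had a sum of 113 CPM, ENSBTAG00000020196 had 68.9, ENSBTAG00000007068 had 28.3 and ENSBTAG00000046704 had 19.6 CPM.

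In tubular IL6 replicate 2, ENSBTAG00000013768 had 34.2, ENSBTAG00000053661 had 28.3, ENSBTAG00000047605 had 21.4 and ENSBTAG00000016784 had 12 CPM. In tubular IL6 replicate 3, ENSBTAG00000036061 had 13.2 CPM, and in replicate 4, ENSBTAG00000014218 had 12.8 and ENSBTAG00000020196 had 10.3 CPM.

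In tubular control replicate 1, ENSBTAG00000021972 had 26.4 and ENSBTAG00000054123 had 13.1 CPM. Tubular control replicate 3 had ENSBTAG00000046704 at 45.3, ENSBTAG00000021764 at 42.3, ENSBTAG00000010676 at 36.6 and ENSBTAG00000032899 at 20.6 CPM, and tubular control replicate 4 had ENSBTAG00000013768 at 23.6 CPM. Ovoid control replicate 1 had program A at a sum of 68.9 CPM, ENSBTAG00000050719 at 39.5, ENSBTAG00000021972 at 26.8, ENSBTAG00000009405 at 23.3 and ENSBTAG00000001927 at 18.5 CPM. Ovoid control replicate 5 had program C at a sum of 16.1 CPM, and ovoid control replicate 6 had ENSBTAG00000046704 at 37.2 CPM.

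The shallow library, ovoid control replicate 3, was not used to choose the genes, and the exact 95% Poisson interval of 8 lay above all other ovoid controls. Those with more than 3 counts were ENSBTAG00000016061 at 585, ENSBTAG00000039861 at 234, ENSBTAG00000047140 at 152, ENSBTAG00000010366 at 51.6 and ENSBTAG00000019432 at 39.4 CPM. The other 3 rest on 3 counts or fewer: ENSBTAG00000016784 at 9.1 CPM, and ENSBTAG00000011336 and ENSBTAG00000054227 at 6.07 CPM each.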

How the results depend on the processing

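Of 760 alternative values of 24 fold changes, 740 kept their direction and side of the threshold, 13 passed it in addition and 7 reversed; the cause was not tested. Reversed log2 fold changes were -0.98 for ENSBTAG00000009292 (ovoid IL6) and -0.50 for ENSBTAG00000038532 (averaged IL6) without c6186. For tubular against ovoid controls they were -0.27 for ENSBTAG00000010676 without tubular control replicate 3 (up to 2.93 without other libraries) and, for ENSBTAG00000016061, 0.62 without ovoid control replicate 3 (down to -5.72 without others), 0.33 with title code as a random block and 0.00196 without c201. For tubular against ovoid IL6, ENSBTAG00000047605 had -1.03 without tubular IL6 replicate 2 and up to 2.58 without others.

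For ovoid IL6, genes called were 86 in DESeq2, 154 without c9007 and 0 to 11 without 1 library, and members called were 6, 6 and 0 to 1. Averaged over shapes they were 143, 344 and 0 to 1, and members 7, 6 and 0 to 1. For sex, genes called were 88 in DESeq2 (2 members), 13 with the block, 3 without c201 or c8086, 2 without c5036, c6186 or c9007, and 5 to 23 without 1 library. The set held 580 genes over all 20 libraries (35 of the 40 among them), 38 with TMM scaling, 32 to 44 without 1 library, 155 at 10 CPM, 3 at 50 CPM, and 14 and 105 with medians of 1 and 4. There were 5 programs at tree height 0.5 and 2 to 4 without 1 library. With a pseudocount of 0.1, with rank correlation and at height 0.2, program B kept 9, 8 and 9 genes together, program A 4, 5 and 4, and program C 2, 2 and 2.

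Single conceptuses could not be paired because the labels give no replicate numbers shared between groups. Some title codes hold both shapes and each holds both sexes, so shape and sex could be compared within codes. The edgeR and DESeq2 fits did not do so. In limma-voom the title codes, each holding several conceptuses, entered as a random block (correlation 0.148). Depth limits low values: 0 counts in the shallow library allow 9.1 CPM at a floor of 3 counts.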
